A study of Mus musculus with 12 samples.

Results

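Lysosomal enzymes and membrane proteins were followed through 4 groups of mouse macrophages as a list of 50 named genes, matched by symbol to the 19937 genes that the arrays named. All 50 were found, and all 50 had a mean over the 12 arrays above 3.36, a background level set by olfactory receptor genes. The measured RNA was that made during 60 min of labelling with 4-thiouridine, a uridine analogue that cells build into RNA as they transcribe it. Bone marrow-derived macrophages (BMM) came from C57BL/6 marrow and grew in DMEM with M-CSF. MPI-2, a single self-renewing line from C57BL/6 fetal liver, grew in RPMI with GM-CSF, and both media held 10% serum. Each was mock-treated or given R-LPS, a form of the bacterial outer membrane lipid that Toll-like receptor 4 senses, with labelling from 30 to 90 min after it. This gave 4 groups of 3 arrays, 2 of mock cells and 2 of LPS-treated cells. Replicates are called biological in the titles, but no label ties them to separate mice or cultures. The p-values therefore reflect the scatter of these samples alone, part of which may be technical. Cell type cannot be told apart from growth factor, medium or array batch, and in such bulk samples fewer expressing cells and less RNA per cell cannot be told apart.

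The lysosome is an acidic organelle in which many kinds of hydrolase take apart proteins, sugar chains and lipids, and macrophages are especially rich in it because they digest what they engulf. Its soluble enzymes are tagged with mannose 6-phosphate and carried from the Golgi, a proton pump (the V-ATPase) acidifies the lumen, and heavily glycosylated membrane proteins line the wall. The basic helix-loop-helix factors TFEB, TFE3 and MITF switch many of these genes on together by binding the CLEAR element, a short palindrome built around the E-box CACGTG. When nutrients are plentiful, the kinase mTORC1 phosphorylates TFEB on the lysosomal surface and holds it in the cytosol.

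Each array's mean correlation with the others of its group, across genes, was 0.995 in MPI-2 and 0.976 to 0.986 in BMM. Gene values spread less in BMM LPS (interquartile range 2.34 to 2.74) than in BMM mock (2.80 to 2.93), MPI-2 LPS (3.10 to 3.22) or MPI-2 mock (3.27 to 3.47). The part of this spread in the results was not tested by itself, but medians after other scalings between arrays are given further on. All 8 measured markers of macrophages were above background in every group, against 2 to 3 of 8 neutrophil, 2 to 4 of 6 dendritic cell, 1 to 2 of 4 T cell, 0 to 2 of 4 B cell, 0 to 1 of 3 erythroid and 3 to 4 of 5 fibroblast markers. All values below are log2 values as deposited, 1 array after another in the order of the replicate numbers in the titles. Changes are differences of group means with their standard error (SE), and a change of 1 is a 2-fold difference. A gene is said to have risen or fallen where limma's adjusted p (Benjamini-Hochberg over all 19937 genes) was under 0.05.

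Lysosomal genes mostly fell with LPS in BMM. Of the 50, 39 fell, 2 rose (Ctsc and Npc2) and 9 did not pass, whereas 15.4% of all genes fell and 10.3% rose. The median change of the 50 was -0.94, against 0.04 over all genes and -0.08 over the 12030 genes above background. Of the latter, 24.5% fell and 14.3% rose. At least 2-fold decreases were seen in 23, led by the asparaginyl endopeptidase Lgmn (-2.91), the glucuronidase Gusb (-2.81), the galactocerebrosidase Galc (-2.38), the cholesterol exporter Npc1 (-2.08) and the proton pump subunit Atp6v0d2 (-2.02). The mock and LPS arrays did not overlap for 40 of the 50, where they did not for 32% of all genes and for 4978 of the 12030 above background. On single arrays, the median of the 50 genes lay at 7.41 to 7.72 in BMM mock and at 6.14 to 6.33 in BMM LPS.

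In MPI-2 fewer of them passed as lower, and the median decrease was smaller. There 23 fell, 4 rose (Ctsb, Ctsc, Ctsd and Mitf) and 23 did not pass, where 9.58% of all genes fell and 5.17% rose. Among genes above background 15.5% fell and 8.02% rose. The median change was -0.47, against 0.02 over all genes, and 12 fell at least 2-fold. The thioesterase Ppt1 (-2.29), the membrane protein Scarb2 (-1.91), the phospholipase Pla2g15 (-1.74) and the sphingolipid activator precursor Psap (-1.61) led these decreases. Arrays of mock and LPS did not overlap for 45 of the 50, where they did not for 37.1% of all genes and for 6216 of the 12030 above background. The median SD of the 50 genes was 0.115 in MPI-2 mock and 0.0792 in MPI-2 LPS, against 0.252 in BMM mock and 0.196 in BMM LPS. The fit shares 1 spread per gene over both cell types, so counts of calls depend on it. With only the 2 groups of each comparison, 3172 of all genes fell in MPI-2 and 2143 in BMM, against 1910 and 3061 in the main fit. Of the 50, 9 more then passed in MPI-2, and Galns, Neu1, Lamp2, Mcoln1 and Atp6v1h no longer passed in BMM. The medians stayed at -0.47 and -0.94. Per array, the median of the 50 genes was 7.08 to 7.29 in MPI-2 mock and 6.27 to 6.36 in MPI-2 LPS.

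**Figure D1:**
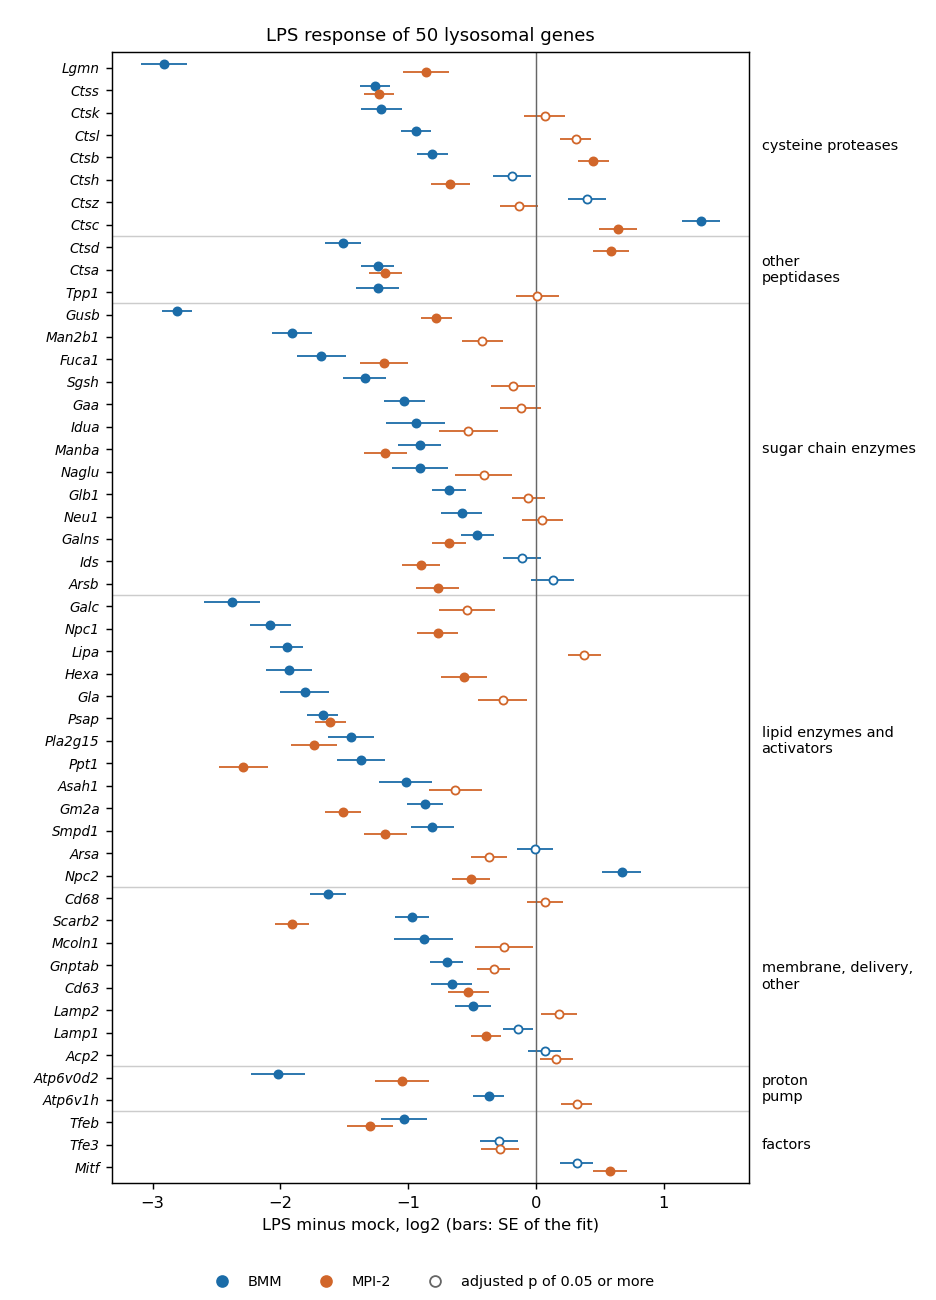
Log2 change with LPS (horizontal axis, LPS minus mock) of each of the 50 lysosomal genes, 1 row per gene in blocks by role, with BMM in blue and MPI-2 in orange, bars for the SE of the fit and open points for changes not past the threshold. Most points lie left of 0, with 39 genes lower in BMM and 23 in MPI-2, while Ctsb and Ctsd lie left of 0 in BMM and right of it in MPI-2 and Npc2 the other way round.

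Setting both responses side by side, 18 genes fell in both cell types and Ctsc rose in both. Another 19 fell in BMM without passing in MPI-2, and 4 (Ctsh, Arsb, Lamp1 and Ids) fell in MPI-2 without passing in BMM. Ctsb and Ctsd fell in BMM and rose in MPI-2, and Npc2 rose in BMM and fell in MPI-2. Ctsz, Arsa, Acp2 and Tfe3 passed in neither. Tested directly, the response of MPI-2 minus that of BMM was higher for 20 genes and lower for 7, where 7.08% and 6.27% of all genes were so called. The median was 0.40 over the 50 and -0.02 over all genes. Among genes above background 11.2% were higher and 9.84% lower (median 0.04). Of the 19 genes that fell in BMM and did not pass in MPI-2, 13 had a difference past the threshold, and the other 6 are not shown to respond differently. Across the 50 genes the changes in BMM and MPI-2 had Pearson's r 0.300 and Spearman's rho 0.312, against 0.465 and 0.382 over all 19937 genes, given as a description over genes that share arrays. The count of lower differences depended on single arrays. It was 2 without MPI-2 mock 1 or MPI-2 LPS 2, 3 without MPI-2 mock 2 or MPI-2 LPS 3, and 4 without BMM LPS 2 or MPI-2 LPS 1.

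**Figure D2:**
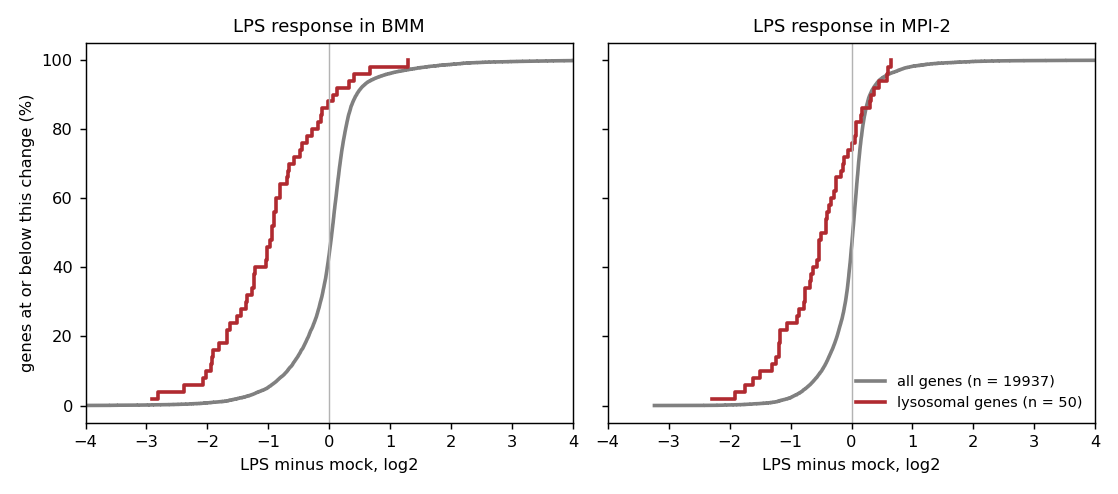
Cumulative share of genes (vertical axis, percent) at or below each log2 change with LPS (horizontal axis, LPS minus mock, drawn from -4 to 4), for BMM and for MPI-2, with all 19937 genes in grey and the 50 lysosomal genes in red. The red curve lies left of the grey one, with medians of -0.94 against 0.04 in BMM and -0.47 against 0.02 in MPI-2.

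Of the 3 transcription factor genes, Tfeb fell in both cell types. Tfeb read 6.29, 5.54 and 6.12 in BMM mock, 5.04, 4.70 and 5.11 in BMM LPS, 6.22, 6.12 and 5.92 in MPI-2 mock and 4.94, 4.76 and 4.67 in MPI-2 LPS. Every LPS array lay below every mock array of its own cell type, with a change of -1.03 ± 0.18 in BMM and -1.30 ± 0.18 in MPI-2 (adjusted p = 0.000398 and 0.000108). Tfe3, a close relative of Tfeb, read 7.97, 7.42 and 7.88 in BMM mock, 7.30, 7.60 and 7.52 in BMM LPS, 6.89, 6.73 and 6.60 in MPI-2 mock and 6.52, 6.44 and 6.42 in MPI-2 LPS. MPI-2 arrays all lay below BMM arrays (MPI-2 minus BMM -1.02 ± 0.15 in mock and -1.01 ± 0.15 in LPS), and LPS changed it by -0.29 ± 0.15 in BMM and -0.28 ± 0.15 in MPI-2, neither past the threshold. In BMM that decrease passed without BMM mock 2 (-0.46). Mitf, the third factor and a regulator of osteoclasts and pigment cells, read 8.55, 8.85 and 8.71 in BMM mock, 8.84, 8.92 and 9.31 in BMM LPS, 8.67, 8.73 and 8.74 in MPI-2 mock and 9.29, 9.26 and 9.32 in MPI-2 LPS. Its LPS arrays lay above the mock arrays in MPI-2 (0.58 ± 0.13, adjusted p = 0.00703) and overlapped them in BMM (0.32 ± 0.13, adjusted p = 0.103). For none of the 3 did the difference between both responses pass.

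Upstream sequence was examined for the letters that these factors bind. RefSeq promoter windows of GRCm38.p6, from 250 bases before to 50 bases after a start site, were at hand for 43 of the 50 genes. CACGTG, a palindrome that reads the same on both strands, stood in the windows of 12 of these 43 genes (27.9%), against 8.09% of all genes with a window and 9.50% of the tested genes. TCACGTGA, which contains it and is the core of the CLEAR element, stood in those of 4 of the 43 (9.30%), against 1.12% and 1.52%. The stretches below are those with TCACGTGA (Ctsa, Ctsd, Mcoln1 and Gla), the one with the most E-boxes (Lamp1, with 4) and that of the gene with the largest decrease in BMM (Lgmn). Capitals mark the motif, and each is written 5′ to 3′ on the strand of its gene.
Ctsa: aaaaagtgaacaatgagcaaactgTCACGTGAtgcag
Ctsd: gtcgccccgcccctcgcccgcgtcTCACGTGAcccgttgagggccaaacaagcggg
Mcoln1: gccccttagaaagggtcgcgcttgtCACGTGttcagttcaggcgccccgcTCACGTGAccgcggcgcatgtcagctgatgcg
Gla: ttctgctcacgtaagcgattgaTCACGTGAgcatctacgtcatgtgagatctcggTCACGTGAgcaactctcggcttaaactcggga
Lamp1: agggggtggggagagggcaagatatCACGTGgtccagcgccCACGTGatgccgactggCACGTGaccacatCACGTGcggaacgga
Lgmn: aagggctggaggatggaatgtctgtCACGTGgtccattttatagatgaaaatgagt
They lie at chr2:164833736-164833772 (plus strand), chr7:142387895-142387950 (minus), chr8:3500423-3500504 (plus), chrX:134601169-134601255 (minus), chr8:13159075-13159160 (plus) and chr12:102439111-102439166 (minus). A match of these letters is a description and does not show binding. Of the 12 genes with CACGTG 10 fell with LPS in BMM and none rose (median -0.98), and of the 31 with a window without it 23 fell and 2 rose (median -0.94). In MPI-2, 3 of the 12 fell and 1 rose (median -0.26), and 16 of the 31 fell and 2 rose (median -0.53). The genes printed above did not move alike. Ctsa fell in both cell types, Ctsd fell in BMM and rose in MPI-2, Mcoln1 and Gla fell in BMM, and Lamp1, with the most E-boxes, changed by -0.14 ± 0.12 in BMM and -0.39 ± 0.12 in MPI-2.

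Cysteine proteases of the lysosome cut proteins and prepare antigenic peptides, and in BMM their LPS changes spanned the widest range of the role groups, from -2.91 to 1.29. Of 8, 5 fell and 1 rose with LPS in BMM, and 3 fell and 2 rose in MPI-2. Lgmn encodes legumain, which cuts after asparagine and activates other cathepsins. It read 10.12, 10.16 and 10.13 in BMM mock, 6.71, 7.29 and 7.68 in BMM LPS, 4.86, 4.68 and 4.76 in MPI-2 mock and 3.91, 3.79 and 4.01 in MPI-2 LPS. All BMM mock arrays were high, BMM LPS arrays were lower and MPI-2 arrays lay lowest, with no overlap between groups. With LPS it fell 7.51-fold in BMM (-2.91 ± 0.18) and changed by -0.86 ± 0.18 in MPI-2, and the difference between both was 2.05 ± 0.26. MPI-2 minus BMM was -5.37 ± 0.18 in mock, the lowest such value of the 50, and -3.32 ± 0.18 in LPS.

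Ctss, a cathepsin that trims the invariant chain of MHC class II, read 9.19, 9.56 and 9.50 in BMM mock, 8.11, 8.10 and 8.26 in BMM LPS, 6.91, 7.06 and 6.87 in MPI-2 mock and 5.78, 5.70 and 5.66 in MPI-2 LPS. Its arrays fell into 4 separate levels, BMM above MPI-2 and mock above LPS. The change with LPS was -1.26 ± 0.12 in BMM and -1.23 ± 0.12 in MPI-2, with a difference of 0.03 ± 0.18 that did not pass. Ctsk, the collagen-cutting cathepsin best known from osteoclasts, lies next to Ctss on the chromosome in the RefSeq annotation and showed the opposite cell type pattern. Ctsk read 5.0, 4.26 and 4.45 in BMM mock, 3.47, 3.17 and 3.42 in BMM LPS, 9.30, 9.23 and 9.31 in MPI-2 mock and 9.32, 9.34 and 9.40 in MPI-2 LPS. MPI-2 arrays were far above all BMM arrays, and the mean of BMM LPS lay just under the background level, so that values set against it are limits. The gap was 4.71 ± 0.16 in mock (26.2-fold), and with BMM LPS set at background Ctsk was at least 63.6-fold higher in MPI-2 LPS (measured 6.0 ± 0.16). In BMM it fell, at least 2.30-fold (measured -1.21 ± 0.16), and in MPI-2 it changed by 0.07 ± 0.16. The measured difference of 1.28 ± 0.23 has the same limit.

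Ctsb and Ctsl, endopeptidases of general protein breakdown, changed with LPS in BMM and were lower in MPI-2 mock than in BMM mock. Ctsb read 10.39, 10.43 and 10.42 in BMM mock, 9.38, 9.79 and 9.63 in BMM LPS, 9.14, 9.05 and 8.89 in MPI-2 mock and 9.45, 9.45 and 9.51 in MPI-2 LPS. LPS arrays were below mock arrays in BMM and above them in MPI-2, without overlap in either. The change was -0.81 ± 0.12 in BMM and 0.45 ± 0.12 in MPI-2, with a difference of 1.26 ± 0.18. The increase in MPI-2 lost its call after cyclic loess scaling (0.27) and without MPI-2 mock 2 or 3 or MPI-2 LPS 1, 2 or 3 (0.38 to 0.46). Ctsl read 9.95, 9.95 and 10.10 in BMM mock, 9.14, 9.17 and 8.86 in BMM LPS, 6.83, 6.74 and 6.75 in MPI-2 mock and 7.01, 7.14 and 7.08 in MPI-2 LPS. BMM arrays were all higher than MPI-2 arrays (MPI-2 minus BMM -3.23 ± 0.12 in mock and -1.98 ± 0.12 in LPS), and LPS changed it by -0.94 ± 0.12 in BMM and 0.31 ± 0.12 in MPI-2 (difference 1.25 ± 0.17).

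Ctsc, which activates granule serine proteases by removing dipeptides, was the exception that rose in both cell types. Ctsc read 8.27, 8.93 and 8.71 in BMM mock, 9.92, 10.02 and 9.84 in BMM LPS, 10.48, 10.50 and 10.53 in MPI-2 mock and 11.08, 11.20 and 11.15 in MPI-2 LPS. MPI-2 arrays were all above BMM arrays, and LPS arrays were above mock arrays in each. It rose by 1.29 ± 0.15 in BMM and 0.64 ± 0.15 in MPI-2, a call lost in MPI-2 after quantile scaling (0.33). Its difference of -0.65 ± 0.21 was lost without BMM mock 1 or 3, BMM LPS 1 or 2, MPI-2 mock 1, 2 or 3 or MPI-2 LPS 1, 2 or 3 (-0.69 to -0.47). The aminopeptidase Ctsh changed little in BMM (-0.19 ± 0.15) and fell in MPI-2 (-0.67 ± 0.15). The carboxypeptidase Ctsz passed in neither (0.40 ± 0.15 and -0.13 ± 0.15) and was higher in MPI-2 mock than in BMM mock (0.64 ± 0.15), a call lost after cyclic loess (0.21). In BMM Ctsz passed as higher without BMM mock 3 or BMM LPS 3 (0.49 to 0.55), and its difference passed as lower without BMM LPS 3 (-0.68). The adjusted p of the calls described for these 8 proteases ran from 2.78e-13 to 0.049.

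**Figure D3:**
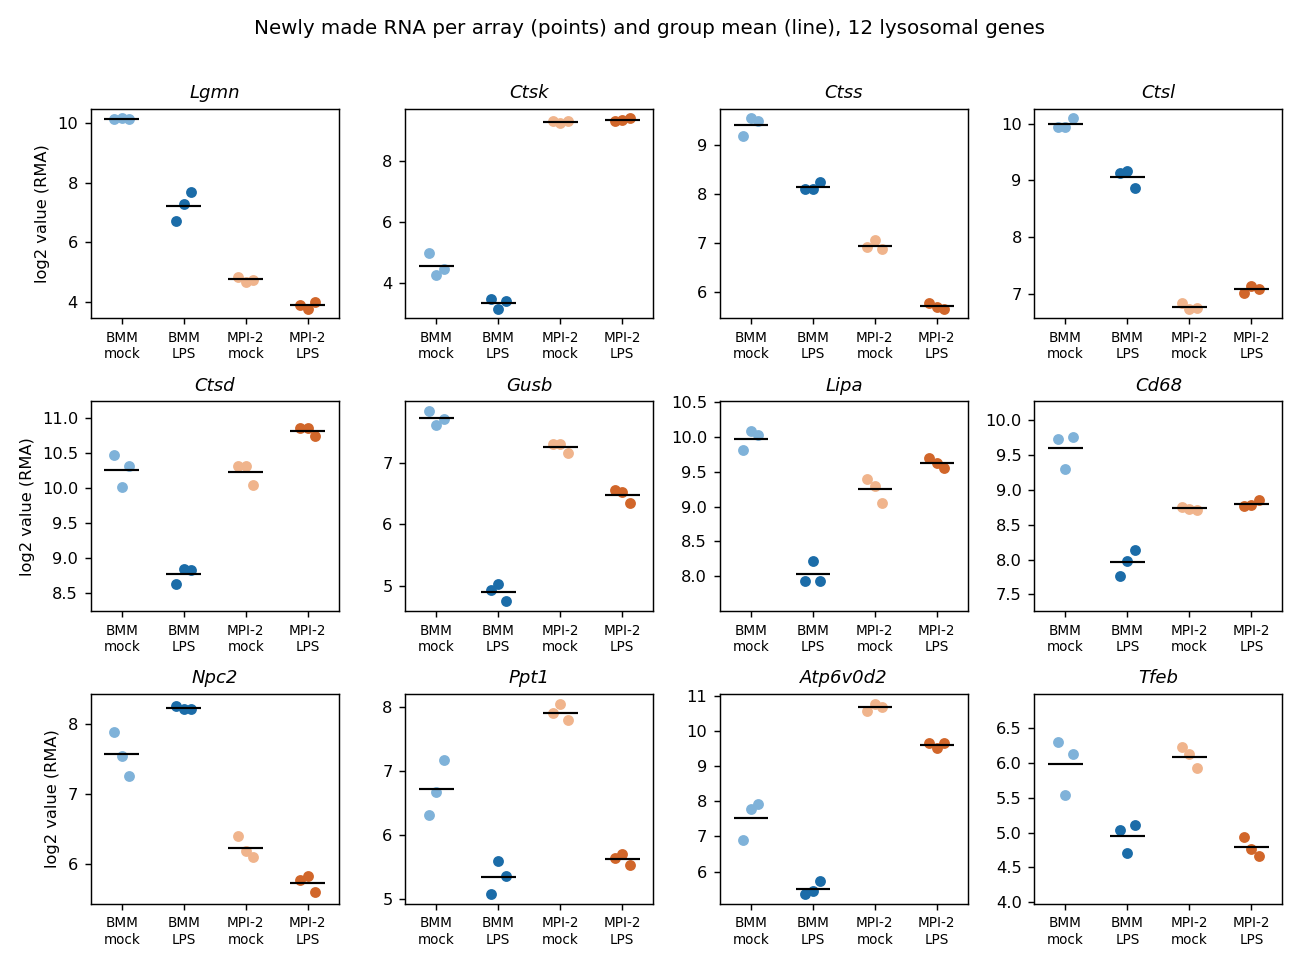
Log2 values on single arrays (points, 3 per group) and group means (lines) for 12 lysosomal genes, 1 panel per gene, with the 4 groups along the horizontal axis and a separate vertical axis in each panel. Lgmn was highest in BMM mock (10.12 to 10.16) and Ctsk in both MPI-2 groups (9.23 to 9.40).

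Ctsk and Atp6v0d2, both high in MPI-2, are also textbook osteoclast genes, so a list of osteoclast markers stands beside them. Of 8 markers, 6 had a mean above background in each BMM group and 5 in each MPI-2 group. The calcitonin receptor gene Calcr, which defines mature osteoclasts, was below background in all groups (means of 2.58 to 2.94), as was Mmp9 (2.97 to 3.25). The phosphatase gene Acp5 had a mean of 4.79 in BMM mock, 5.12 in BMM LPS, 5.82 in MPI-2 mock and 7.45 in MPI-2 LPS. The fusion receptor gene Dcstamp stood at 5.16, 4.43, 5.28 and 6.45 in the same order. Nfatc1, a transcription factor of osteoclast formation, stood at 6.68, 5.86, 7.18 and 5.86. Itgb3, Ocstamp and Oscar instead had lower means in MPI-2 than in BMM, in mock and in LPS. Their values lay near background, and in MPI-2 Itgb3 in mock and Oscar in LPS lay under it, so their direction is uncertain. In mock these genes stood at 3.95, 3.9 and 3.54 in BMM and at 3.25, 3.52 and 3.37 in MPI-2. On single arrays the mean over the 8 markers ranged from 3.94 to 4.42 in BMM and from 4.20 to 4.60 in MPI-2, and the part of these markers in the result was not tested.

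Other peptidases of the list were Ctsa, Ctsd and Tpp1, and all 3 fell in BMM. Ctsd, the main aspartic protease, read 10.47, 10.01 and 10.31 in BMM mock, 8.62, 8.84 and 8.83 in BMM LPS, 10.32, 10.32 and 10.04 in MPI-2 mock and 10.86, 10.86 and 10.74 in MPI-2 LPS. BMM LPS arrays stood apart below all others, and MPI-2 LPS arrays were above MPI-2 mock arrays. The change was -1.51 ± 0.14 in BMM and 0.59 ± 0.14 in MPI-2, and the difference of 2.10 ± 0.20 was among the largest. In MPI-2 the increase was not called after quantile (0.30) or cyclic loess scaling (0.38). Mock levels overlapped between cell types (-0.04 ± 0.14), whereas LPS levels were 2.06 ± 0.14 higher in MPI-2.

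Ctsa, a carboxypeptidase that also protects galactosidase and neuraminidase, read 8.73, 8.47 and 8.88 in BMM mock, 7.33, 7.53 and 7.48 in BMM LPS, 8.61, 8.57 and 8.46 in MPI-2 mock and 7.54, 7.37 and 7.19 in MPI-2 LPS. LPS arrays lay below mock arrays by a like amount in both (-1.24 ± 0.13 and -1.18 ± 0.13), and the cell types overlapped in mock and in LPS. Tpp1, a tripeptidyl peptidase, read 7.08, 7.22 and 7.72 in BMM mock, 6.13, 6.28 and 5.92 in BMM LPS, 6.96, 7.35 and 6.94 in MPI-2 mock and 7.02, 7.07 and 7.18 in MPI-2 LPS. Only the BMM LPS arrays stood low, and it fell in BMM (-1.24 ± 0.17), overlapped in MPI-2 (0.01 ± 0.17) and was 0.99 ± 0.17 higher in MPI-2 than in BMM after LPS (difference 1.24 ± 0.24). These calls had adjusted p from 6.46e-09 to 0.00735.

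Enzymes of sugar chains and glycosaminoglycans remove sugars or sulfates step by step, and the loss of any of them causes a storage disease. Of 13, 11 fell in BMM and 6 in MPI-2, with none higher in either. Gusb, which removes glucuronic acid, read 7.84, 7.62 and 7.71 in BMM mock, 4.94, 5.03 and 4.75 in BMM LPS, 7.31, 7.31 and 7.15 in MPI-2 mock and 6.55, 6.52 and 6.35 in MPI-2 LPS. BMM LPS arrays were the lowest by a wide margin, and no groups overlapped. It fell 7.03-fold in BMM (-2.81 ± 0.12), changed by -0.78 ± 0.12 in MPI-2 and differed by 2.03 ± 0.17 between the responses. It was lower in MPI-2 than in BMM in mock (-0.47 ± 0.12) and higher in LPS (1.56 ± 0.12).

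Man2b1, an alpha-mannosidase acting on N-glycans, read 6.75, 6.95 and 7.35 in BMM mock, 4.89, 5.15 and 5.28 in BMM LPS, 6.11, 6.48 and 6.32 in MPI-2 mock and 5.77, 5.92 and 5.94 in MPI-2 LPS. BMM LPS arrays were lowest and BMM mock arrays highest, without overlap. LPS changed it by -1.91 ± 0.16 in BMM and -0.42 ± 0.16 in MPI-2 (difference 1.49 ± 0.23). Like Gusb it was lower in MPI-2 mock (-0.72 ± 0.16) and higher in MPI-2 LPS (0.77 ± 0.16), the last not called after quantile (0.35) or cyclic loess scaling (0.32). Manba, the beta-mannosidase, read 5.57, 6.26 and 6.28 in BMM mock, 4.92, 5.18 and 5.27 in BMM LPS, 6.08, 6.10 and 6.01 in MPI-2 mock and 4.91, 4.76 and 4.98 in MPI-2 LPS. LPS arrays were below mock arrays in both cell types (-0.91 ± 0.17 and -1.18 ± 0.17), and the cell types overlapped in mock and in LPS. Fuca1, which removes fucose, read 5.91, 5.18 and 5.99 in BMM mock, 3.70, 4.14 and 4.19 in BMM LPS, 5.57, 5.70 and 5.53 in MPI-2 mock and 4.39, 4.37 and 4.46 in MPI-2 LPS. It fell without overlap in both (-1.68 ± 0.19 in BMM, -1.19 ± 0.19 in MPI-2), with a difference (0.49 ± 0.26) that passed only without BMM mock 2 (0.74).

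Sgsh, a sulfamidase of heparan sulfate, read 6.03, 5.34 and 5.51 in BMM mock, 4.19, 4.11 and 4.56 in BMM LPS, 4.19, 3.91 and 4.06 in MPI-2 mock and 3.93, 3.82 and 3.87 in MPI-2 LPS. BMM mock arrays stood above all others, and MPI-2 mock and LPS overlapped. Sgsh fell in BMM (-1.34 ± 0.17), changed by -0.18 ± 0.17 in MPI-2 (difference 1.17 ± 0.24) and was lower in MPI-2 mock than in BMM mock (-1.58 ± 0.17). Gaa, the acid glucosidase that breaks down glycogen, read 5.41, 4.69 and 5.17 in BMM mock, 4.21, 4.07 and 3.91 in BMM LPS, 4.23, 4.29 and 4.17 in MPI-2 mock and 4.19, 4.12 and 4.02 in MPI-2 LPS. Here too BMM mock arrays were high and the other 3 groups lay together, with changes of -1.03 ± 0.16 in BMM and -0.12 ± 0.16 in MPI-2 (difference 0.91 ± 0.22) and a mock difference between cell types of -0.86 ± 0.16.

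Ids and Idua take the first steps in breaking down dermatan and heparan sulfate. Ids read 6.17, 6.15 and 6.36 in BMM mock, 6.26, 6.24 and 5.85 in BMM LPS, 5.94, 5.76 and 5.50 in MPI-2 mock and 4.94, 4.75 and 4.81 in MPI-2 LPS. The BMM groups overlapped and the MPI-2 LPS arrays were lowest, so that it changed by -0.11 ± 0.15 in BMM and fell in MPI-2 (-0.90 ± 0.15). The difference of -0.79 ± 0.21 was lost without MPI-2 mock 1 or MPI-2 LPS 2 (-0.74 to -0.68), and the lower mock level of MPI-2 (-0.49 ± 0.15) without BMM mock 3 or MPI-2 mock 3 (-0.43 to -0.38). Idua read 6.59, 6.36 and 6.75 in BMM mock, 5.86, 6.08 and 4.94 in BMM LPS, 5.22, 5.70 and 5.31 in MPI-2 mock and 4.91, 4.89 and 4.84 in MPI-2 LPS. BMM LPS 3 was well below the other arrays of its group, and the decrease in BMM (-0.94 ± 0.23) was smaller without BMM LPS 3 (-0.60). In MPI-2 it changed by -0.53 ± 0.23, which passed without BMM LPS 3 (-0.53). MPI-2 lay below BMM in mock (-1.16 ± 0.23) and in LPS (-0.75 ± 0.23), the latter lost without BMM LPS 1 or 2 (-0.63 to -0.52).

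Arsb, a sulfatase of dermatan and chondroitin sulfate, read 4.47, 4.97 and 4.67 in BMM mock, 4.69, 4.68 and 5.12 in BMM LPS, 6.12, 6.08 and 5.56 in MPI-2 mock and 5.18, 5.14 and 5.14 in MPI-2 LPS. MPI-2 mock arrays stood above the rest, and the BMM groups overlapped (0.13 ± 0.17). It fell in MPI-2 (-0.77 ± 0.17, not called after quantile scaling, -0.51) and was higher in MPI-2 mock than in BMM mock (1.22 ± 0.17). The difference (-0.89 ± 0.25) was lost without BMM mock 3, MPI-2 mock 1 or 2 or MPI-2 LPS 2 or 3 (-0.89 to -0.79). The remaining 4 sugar enzymes changed by less than 1 in each comparison. Glb1, the beta-galactosidase, fell in BMM (-0.68 ± 0.13), Naglu, a glucosaminidase of heparan sulfate, did too (-0.91 ± 0.22), and neither passed in MPI-2 (-0.06 ± 0.13 and -0.41 ± 0.22). The difference of Glb1 (0.62 ± 0.18) was lost without BMM mock 1, BMM LPS 1 or 3, MPI-2 mock 1, 2 or 3 or MPI-2 LPS 1, 2 or 3 (0.51 to 0.65). Galns, a sulfatase of keratan sulfate, fell in MPI-2 (-0.68 ± 0.13), a call lost after quantile scaling (-0.42). Its decrease in BMM (-0.46 ± 0.13) was lost after quantile and cyclic loess scaling (-0.22 and -0.19), with the BMM arrays alone and without BMM mock 1 or 3 or BMM LPS 2 (-0.42 to -0.34). Neu1, the sialidase, fell in BMM (-0.58 ± 0.16), a call lost without BMM mock 1 or BMM LPS 2 (-0.50 to -0.36), after quantile and cyclic loess scaling (-0.35 and -0.31), with array weights (-0.43) and with the BMM arrays alone. Adjusted p of the calls described for the sugar enzymes ran from 1.56e-10 to 0.0349.

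Lipid and sphingolipid enzymes and their helper proteins had the lowest median change of the role groups in BMM, -1.45 over 13 genes. Of these 11 fell and 1 rose in BMM, and 8 fell and none rose in MPI-2. Lipa, the acid lipase that frees cholesterol from lipoprotein esters, read 9.81, 10.08 and 10.03 in BMM mock, 7.93, 8.22 and 7.93 in BMM LPS, 9.40, 9.29 and 9.05 in MPI-2 mock and 9.69, 9.62 and 9.55 in MPI-2 LPS. BMM LPS arrays were far below BMM mock arrays, while MPI-2 LPS arrays were slightly above MPI-2 mock arrays. It changed by -1.95 ± 0.13 in BMM and 0.38 ± 0.13 in MPI-2, and the difference of 2.32 ± 0.19 was the largest of the 50. MPI-2 was below BMM in mock (-0.73 ± 0.13) and above it in LPS (1.60 ± 0.13).

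Npc1 and Npc2 hand the freed cholesterol on to the membrane, and they moved apart. Npc1 read 8.32, 8.70 and 8.81 in BMM mock, 6.52, 6.84 and 6.22 in BMM LPS, 9.23, 9.17 and 9.08 in MPI-2 mock and 8.47, 8.28 and 8.42 in MPI-2 LPS. BMM LPS arrays were lowest and MPI-2 mock arrays highest. The change was -2.08 ± 0.16 in BMM and -0.77 ± 0.16 in MPI-2 (difference 1.31 ± 0.23), and MPI-2 exceeded BMM by 0.55 ± 0.16 in mock and 1.86 ± 0.16 in LPS. The mock difference was lost without BMM mock 1 (0.41) and after cyclic loess (0.12). Npc2 read 7.89, 7.54 and 7.26 in BMM mock, 8.26, 8.21 and 8.22 in BMM LPS, 6.40, 6.18 and 6.10 in MPI-2 mock and 5.76, 5.82 and 5.59 in MPI-2 LPS. BMM LPS arrays were above BMM mock arrays, MPI-2 LPS arrays were below MPI-2 mock arrays, and both BMM groups exceeded both MPI-2 groups. It rose in BMM (0.67 ± 0.15) and fell in MPI-2 (-0.51 ± 0.15), with a difference of -1.17 ± 0.21 and cell type gaps of -1.33 ± 0.15 in mock and -2.51 ± 0.15 in LPS. The MPI-2 decrease was lost after quantile and cyclic loess scaling (-0.33 and -0.44) and without MPI-2 mock 1 or 2 or MPI-2 LPS 1, 2 or 3 (-0.56 to -0.42).

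Psap, the precursor of the saposins that present sphingolipids to their enzymes, read 10.46, 10.46 and 10.37 in BMM mock, 8.71, 8.83 and 8.74 in BMM LPS, 10.20, 10.12 and 9.91 in MPI-2 mock and 8.53, 8.39 and 8.48 in MPI-2 LPS. LPS arrays were below mock arrays in both cell types by nearly the same amount (-1.67 ± 0.12 and -1.61 ± 0.12, difference 0.06 ± 0.16). The small mock gap between cell types (-0.35 ± 0.12) was lost without BMM mock 1 or 2 or MPI-2 mock 3 (-0.34 to -0.27), and that in LPS (-0.29 ± 0.12) passed without MPI-2 mock 3 (-0.29). Gm2a, the activator that lifts GM2 ganglioside to hexosaminidase, read 7.92, 7.59 and 7.96 in BMM mock, 6.90, 7.14 and 6.82 in BMM LPS, 7.12, 7.31 and 7.0 in MPI-2 mock and 5.68, 5.60 and 5.63 in MPI-2 LPS. MPI-2 LPS arrays were lowest and BMM mock arrays highest, and no groups compared here overlapped. It fell in BMM (-0.87 ± 0.14) and MPI-2 (-1.51 ± 0.14), and MPI-2 lay below BMM in mock (-0.68 ± 0.14) and LPS (-1.32 ± 0.14). The difference between the responses (-0.64 ± 0.19) was lost after quantile scaling (-0.51) and without BMM mock 2, BMM LPS 1 or 2, MPI-2 mock 1 or 2 or MPI-2 LPS 1, 2 or 3 (-0.67 to -0.52).

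Hexa, a hexosaminidase subunit acting on GM2 ganglioside, read 8.51, 7.80 and 8.08 in BMM mock, 5.92, 6.55 and 6.13 in BMM LPS, 7.23, 7.16 and 7.21 in MPI-2 mock and 6.55, 6.70 and 6.67 in MPI-2 LPS. All BMM mock arrays were above MPI-2 arrays, and BMM LPS arrays overlapped MPI-2 LPS arrays. Hexa fell in BMM (-1.93 ± 0.18) and by less in MPI-2 (-0.56 ± 0.18), with a difference of 1.37 ± 0.25 and a mock gap of -0.93 ± 0.18. The MPI-2 call was lost after quantile and cyclic loess scaling (-0.50 and -0.50) and without BMM mock 3, MPI-2 mock 1, 2 or 3 or MPI-2 LPS 1, 2 or 3 (-0.59 to -0.52). In LPS the cell type gap (0.44 ± 0.18) passed without BMM mock 1 or 2 or BMM LPS 2 (0.44 to 0.62).

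Gla and Galc remove galactose from sphingolipids. Gla read 7.94, 7.95 and 8.03 in BMM mock, 5.69, 6.08 and 6.71 in BMM LPS, 7.80, 7.95 and 7.85 in MPI-2 mock and 7.47, 7.68 and 7.68 in MPI-2 LPS. Only BMM LPS arrays were low, with BMM LPS 3 nearest to the other groups. Gla fell in BMM (-1.81 ± 0.19), did not pass in MPI-2 (-0.26 ± 0.19; difference 1.56 ± 0.27) and was 1.45 ± 0.19 higher in MPI-2 LPS than in BMM LPS. Galc read 6.35, 7.25 and 6.92 in BMM mock, 4.03, 4.45 and 4.88 in BMM LPS, 4.47, 4.48 and 4.27 in MPI-2 mock and 4.01, 3.70 and 3.89 in MPI-2 LPS. BMM mock arrays were high, and the MPI-2 arrays and BMM LPS arrays lay together at low values. The BMM decrease (-2.38 ± 0.22) differed from the MPI-2 change (-0.54 ± 0.22) by 1.84 ± 0.31, and MPI-2 mock was below BMM mock (MPI-2 minus BMM -2.43 ± 0.22). In LPS the cell type gap (-0.59 ± 0.22) was lost after quantile scaling (-0.64) and without BMM LPS 2 or 3, MPI-2 mock 1, 2 or 3 or MPI-2 LPS 1, 2 or 3 (-0.66 to -0.38).

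Ppt1, a thioesterase that removes palmitate from proteins, read 6.32, 6.67 and 7.18 in BMM mock, 5.08, 5.60 and 5.37 in BMM LPS, 7.90, 8.05 and 7.79 in MPI-2 mock and 5.65, 5.70 and 5.53 in MPI-2 LPS. MPI-2 mock arrays were highest, and the 2 LPS groups overlapped. Ppt1 fell in BMM (-1.37 ± 0.19) and by the largest amount of the 50 in MPI-2 (-2.29 ± 0.19, 4.88-fold), and was higher in MPI-2 mock than in BMM mock (1.19 ± 0.19). The difference (-0.92 ± 0.26) was lost without BMM mock 1 or 2, BMM LPS 2, MPI-2 mock 1 or 2 or MPI-2 LPS 1, 2 or 3 (-0.96 to -0.72). Pla2g15, a lysosomal phospholipase, read 6.92, 6.18 and 6.33 in BMM mock, 5.29, 4.94 and 4.85 in BMM LPS, 7.74, 7.54 and 7.54 in MPI-2 mock and 5.80, 5.99 and 5.80 in MPI-2 LPS. Within each cell type LPS arrays were below mock arrays, and MPI-2 was above BMM in each condition. The changes were -1.45 ± 0.18 and -1.74 ± 0.18, and the cell type gaps 1.13 ± 0.18 in mock and 0.83 ± 0.18 in LPS. The LPS gap was lost after quantile (0.43) and cyclic loess scaling (0.37).

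Smpd1, the acid sphingomyelinase, read 5.43, 4.95 and 5.36 in BMM mock, 4.31, 4.72 and 4.28 in BMM LPS, 6.25, 6.05 and 5.68 in MPI-2 mock and 4.92, 4.84 and 4.68 in MPI-2 LPS. MPI-2 mock arrays stood above all others, and LPS arrays were lower than mock arrays in each cell type (-0.81 ± 0.17 and -1.18 ± 0.17). The mock gap between cell types (0.75 ± 0.17) was lost after quantile scaling (0.44), and the LPS gap (0.38 ± 0.17) passed without BMM LPS 2 (0.52). Asah1, the acid ceramidase, read 7.75, 8.54 and 8.40 in BMM mock, 6.95, 7.02 and 7.66 in BMM LPS, 8.59, 8.51 and 8.43 in MPI-2 mock and 7.87, 7.72 and 8.06 in MPI-2 LPS. BMM LPS arrays were lowest, the mock groups overlapped, and BMM mock 1 was below the other mock arrays. It fell in BMM (-1.02 ± 0.21) and changed by -0.63 ± 0.21 in MPI-2, which passed without BMM mock 1 or 2 or BMM LPS 3 (-0.63). Its LPS gap (0.67 ± 0.21) was lost after quantile and cyclic loess scaling (0.35 and 0.22) and without BMM LPS 1 or 2 or MPI-2 LPS 3 (0.54 to 0.58). Arsa, the sulfatase of sulfatide, was near background (3.40 to 4.43 over the 12 arrays) and passed in neither LPS comparison (-0.01 ± 0.14 and -0.37 ± 0.14), while MPI-2 mock exceeded BMM mock (0.66 ± 0.14). Across these 13 genes the calls described had adjusted p from 1.75e-09 to 0.0452.

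Membrane proteins, channels, delivery factors and a phosphatase made up 8 genes, with a median change of -0.68 in BMM. Of these 6 fell in BMM and 3 in MPI-2, with none higher. Scarb2, the receptor that carries glucocerebrosidase to the lysosome, read 7.31, 7.41 and 7.22 in BMM mock, 6.38, 6.49 and 6.16 in BMM LPS, 7.80, 7.65 and 7.53 in MPI-2 mock and 5.68, 5.74 and 5.83 in MPI-2 LPS. Mock arrays were high and LPS arrays low in each cell type, and MPI-2 LPS arrays were lowest. It fell in BMM (-0.97 ± 0.13) and by more in MPI-2 (-1.91 ± 0.13, difference -0.94 ± 0.18). MPI-2 was above BMM in mock (0.35 ± 0.13) and below it in LPS (-0.59 ± 0.13). The mock gap was lost without BMM mock 1 or 3, MPI-2 mock 1 or 2 or MPI-2 LPS 1 or 2 (0.28 to 0.35) and was 0.01 after quantile and -0.04 after cyclic loess scaling.

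Cd68, a glycoprotein widely used as a macrophage stain, read 9.72, 9.30 and 9.76 in BMM mock, 7.77, 7.98 and 8.14 in BMM LPS, 8.76, 8.73 and 8.71 in MPI-2 mock and 8.77, 8.78 and 8.85 in MPI-2 LPS. BMM mock arrays were highest, BMM LPS arrays lowest, and the MPI-2 arrays stayed between them. Cd68 fell in BMM (-1.63 ± 0.14) and changed by 0.07 ± 0.14 in MPI-2 (difference 1.70 ± 0.20), so that MPI-2 was lower in mock (-0.86 ± 0.14) and higher in LPS (0.84 ± 0.14). Lamp2, a main component of the lysosomal wall and of chaperone-mediated autophagy, read 8.53, 8.99 and 9.0 in BMM mock, 8.34, 8.38 and 8.34 in BMM LPS, 7.43, 7.74 and 7.58 in MPI-2 mock and 7.86, 7.66 and 7.77 in MPI-2 LPS. All BMM arrays were above all MPI-2 arrays (MPI-2 minus BMM -1.25 ± 0.14 in mock and -0.59 ± 0.14 in LPS). The decrease in BMM (-0.49 ± 0.14) was lost with the BMM arrays alone and without BMM mock 2 or 3 (-0.41), and the difference (0.66 ± 0.20) without BMM mock 2 or 3, BMM LPS 1, MPI-2 mock 1 or 3 or MPI-2 LPS 1, 2 or 3 (0.58 to 0.72). LPS changed it by 0.18 ± 0.14 in MPI-2.

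The other 5 genes changed by less than 1 in each comparison. Lamp1, the partner of Lamp2, overlapped in BMM (-0.14 ± 0.12) and fell in MPI-2 (-0.39 ± 0.12), a call lost without BMM mock 3, MPI-2 mock 1, 2 or 3 or MPI-2 LPS 1, 2 or 3 (-0.44 to -0.36). The tetraspanin Cd63 fell in BMM (-0.66 ± 0.16) and in MPI-2 (-0.53 ± 0.16), the latter lost without MPI-2 mock 1 or 3 or MPI-2 LPS 1, 2 or 3 (-0.55 to -0.49). Mcoln1, a calcium channel of the lysosomal membrane, fell in BMM (-0.88 ± 0.23) although mock and LPS arrays overlapped. The decrease was smaller without BMM LPS 3 (-0.58), lost with the BMM arrays alone (adjusted p = 0.0596 in limma) and lost without BMM mock 1 and BMM LPS 3 together (-0.42). Gnptab, which makes the mannose 6-phosphate tag, fell in BMM (-0.70 ± 0.13) and not past the threshold in MPI-2 (-0.33 ± 0.13). In LPS its cell type gap (0.28 ± 0.13) passed without BMM LPS 2 (0.35). The phosphatase Acp2 passed in no comparison, with changes of 0.07 ± 0.13 in BMM and 0.16 ± 0.13 in MPI-2. The calls described for these 8 genes had adjusted p from 5.09e-08 to 0.0447.

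The 2 proton pump genes of the list were both higher in MPI-2. Atp6v0d2, a subunit of the membrane sector enriched in osteoclasts and some macrophages, read 6.89, 7.79 and 7.93 in BMM mock, 5.36, 5.45 and 5.73 in BMM LPS, 10.56, 10.77 and 10.67 in MPI-2 mock and 9.66, 9.51 and 9.67 in MPI-2 LPS. MPI-2 arrays were far above BMM arrays and LPS arrays below mock arrays, without overlap, and BMM mock 1 was the lowest of its group. MPI-2 exceeded BMM by 3.13 ± 0.21 in mock (8.76-fold) and 4.10 ± 0.21 in LPS, and LPS changed it by -2.02 ± 0.21 in BMM and -1.05 ± 0.21 in MPI-2. The difference (0.97 ± 0.30) was lost after quantile scaling (0.65) and without BMM mock 2 or 3, BMM LPS 1 or 2, MPI-2 mock 1, 2 or 3 or MPI-2 LPS 1, 2 or 3 (0.77 to 1.02).

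Atp6v1h, a regulatory subunit of the catalytic sector, read 6.51, 6.72 and 6.73 in BMM mock, 6.16, 6.39 and 6.28 in BMM LPS, 7.38, 7.41 and 7.26 in MPI-2 mock and 7.73, 7.72 and 7.57 in MPI-2 LPS. MPI-2 arrays were all above BMM arrays, by 0.70 ± 0.12 in mock and 1.39 ± 0.12 in LPS, and MPI-2 LPS arrays were above MPI-2 mock arrays (0.32 ± 0.12, not past the threshold). The small decrease in BMM (-0.37 ± 0.12) was lost after quantile and cyclic loess scaling (-0.22 and -0.23), with limma's trend, with the BMM arrays alone and without BMM mock 2 or 3 or BMM LPS 1 or 3 (-0.37 to -0.32), and the difference between the responses was 0.70 ± 0.17. Calls of both pump genes had adjusted p from 2.59e-10 to 0.0406.

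Between the cell types the lysosomal genes moved both ways. In mock, 12 of the 50 were higher in MPI-2 and 19 lower, where 20.6% of all genes were higher and 18% lower, and the medians were -0.09 for the 50 and -0.10 over all genes. In LPS, 16 were higher and 12 lower, where 22.5% of all genes were higher and 21.6% lower, and the medians were 0.26 and -0.14. Of the genes above background, 33.24% were higher and 23.03% lower in mock (median 0.03). In LPS these shares were 36.53% and 23.6% (median 0.06), so the 50 did not exceed the share of higher genes in either condition. The arrays of both cell types did not overlap for 32 of the 50 in mock and 34 in LPS, where they did not for 52.4% and 55.4% of all genes. Among the 12030 genes above background they did not overlap for 7831 in mock and 8030 in LPS, shares near those of the 50. The counts of higher and lower genes depended on the scaling between arrays, which also moved the median of all genes to between -0.02 and -0.01. After quantile scaling 10 were higher and 26 lower in mock (median -0.39) and 13 and 15 in LPS (median 0.04). After cyclic loess 9 were higher and 28 lower in mock (median -0.49) and 13 and 19 in LPS (median -0.18).

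Genes called in mock and in LPS kept their direction after both other scalings, with the exception of Scarb2. Lgmn, Ctsl, Ctss, Galc, Npc2, Lamp2, Ids, Idua, Gm2a and Tfe3 were lower in MPI-2 in mock and in LPS, and Ctsc, Ctsk, Npc1, Pla2g15, Atp6v0d2 and Atp6v1h were higher in both. Gusb, Man2b1, Cd68 and Lipa were lower in MPI-2 mock and higher in MPI-2 LPS. Scarb2 was higher in MPI-2 mock and lower in MPI-2 LPS. Ctsd, Glb1 (0.60 ± 0.13), Gla, Asah1, Neu1 (0.94 ± 0.16) and Tpp1 were higher in MPI-2 in LPS without passing in mock, and Ctsh was lower in LPS (-0.57 ± 0.15). Glb1 and Neu1 lost that call after quantile scaling (0.27 and 0.49), and Glb1 after cyclic loess (0.26). Another 12 genes passed in neither, among them Ctsa, Lamp1, Tfeb and Mitf. Some further genes passed when a single array was left out. Where that array was in neither group compared, the difference stayed the same and only its adjusted p moved. In mock Neu1 passed as higher without BMM mock 1 (0.54). In LPS Arsb passed without BMM LPS 3 (0.47), Sgsh without BMM mock 1 or 2 or BMM LPS 2 (-0.50 to -0.41), Naglu without BMM mock 1, 2 or 3 or MPI-2 LPS 3 (0.56 to 0.76), Fuca1 without BMM mock 2 (0.40) and Mitf without BMM LPS 3 (0.41). The largest gap upward was that of Ctsk and the largest downward that of Lgmn, and both belong to the protease group.

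**Figure D4:**
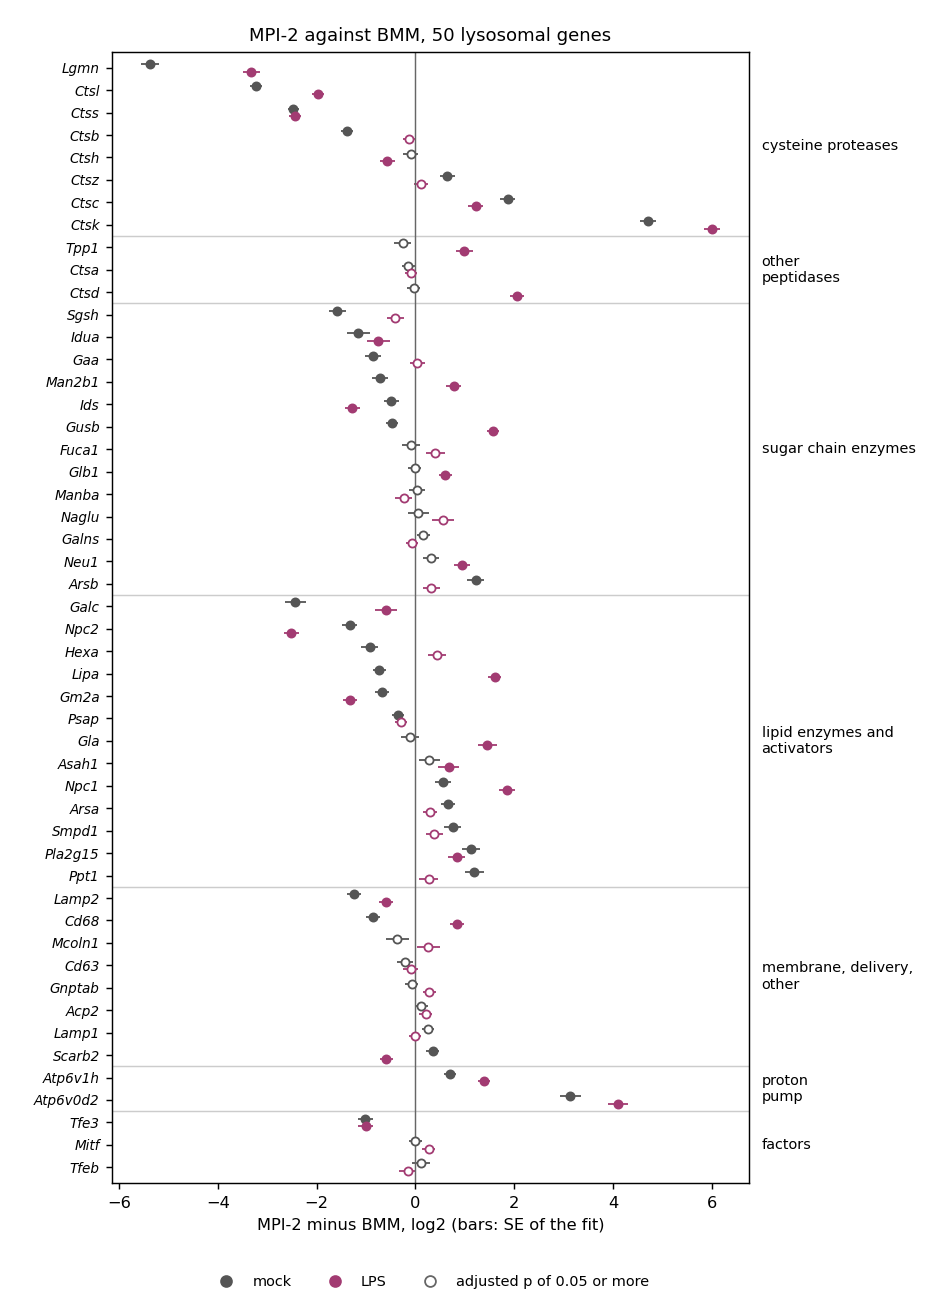
Log2 difference of MPI-2 minus BMM (horizontal axis) for each of the 50 lysosomal genes, 1 row per gene in blocks by role, in mock (grey) and in LPS (purple), with bars for the SE of the fit and open points for differences not past the threshold. Ctsk (4.71 ± 0.16 in mock) lies furthest right and Lgmn (-5.37 ± 0.18) furthest left, and Gusb, Man2b1, Cd68 and Lipa lie left of 0 in mock and right of it in LPS.

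Further genes of the lysosome, not among the 50, were counted from lists written from textbook knowledge, with earlier results of these data known. Over all these lists 29 genes were lower with LPS in MPI-2, a count that ran from 20 to 34 as single arrays were left out. The shares over all genes to set beside these lists were 15.4% lower and 10.3% higher with LPS in BMM, and 9.58% and 5.17% in MPI-2. Between cell types, 18% were lower and 20.6% higher in MPI-2 mock than in BMM mock, and 21.6% and 22.5% in LPS. Among genes above background 24.5% were lower and 14.3% higher with LPS in BMM, and 15.5% and 8.02% in MPI-2. Between cell types 23.03% of the genes above background were lower and 33.24% higher in MPI-2 mock, and 23.6% and 36.53% in LPS. Of 15 measured V-ATPase subunits 8 fell and 2 rose with LPS in BMM (median -0.57), and 3 fell and 3 rose in MPI-2 (median 0.07). Atp6v1c1 (-1.73 ± 0.18) and Atp6v0d1 (-1.48 ± 0.12), both couplers of the pump's sectors, fell in BMM, and Tcirg1, an isoform of the membrane subunit a, rose in both (0.99 ± 0.15 and 0.73 ± 0.15). Like Atp6v0d2 and Atp6v1h, 11 of the 15 were higher and 2 lower in MPI-2 mock than in BMM mock (median 0.62), and 12 were higher and 1 lower in LPS (median 1.16). Atp6v1g1 (1.69 ± 0.15 in mock) and Atp6v1b2 (1.31 ± 0.14) were among the higher ones, and Atp6v1a (-1.13 ± 0.17) and Tcirg1 (-0.73 ± 0.15) were the lower ones.

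Genes that act on TFEB, including mTORC1 and its lysosomal anchors, numbered 24. With LPS in BMM 11 fell and 1 rose (median -0.38), and in MPI-2 3 fell (12.5%) and 1 rose (4.17%; median -0.06), near the shares over all genes. Tfec, a relative of Tfeb and Mitf that macrophages express, rose 10.6-fold in BMM (3.41 ± 0.17) from a mean of 6.30 to 9.70, while MPI-2 was at 9.86 in mock and 9.99 in LPS (0.14 ± 0.17). Folliculin (Flcn), which with its partners Fnip1 and Fnip2 lets mTORC1 phosphorylate TFEB, fell in BMM (-2.29 ± 0.16). Its change in MPI-2 was -0.55 ± 0.16. That call was lost after quantile and cyclic loess scaling and without MPI-2 mock 1 or 2 or MPI-2 LPS 1, 2 or 3 (-0.59 to -0.43). Fnip2 fell in BMM (-1.57 ± 0.17) and did not pass in MPI-2 (0.28 ± 0.17), and Fnip1 fell in BMM (-1.18 ± 0.17) and rose in MPI-2 (0.79 ± 0.17). The differences were -3.27 ± 0.25 for Tfec, 1.74 ± 0.22 for Flcn, 1.98 ± 0.24 for Fnip1 and 1.85 ± 0.25 for Fnip2.

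Of 24 further membrane proteins, 16 fell and 4 rose in BMM (median -0.98), and 12 fell and 1 rose in MPI-2 (median -0.56). Tpcn1, a cation channel (-2.96 ± 0.22), and Laptm5, a transmembrane protein of blood cells (-2.56 ± 0.13), fell most in BMM, and Laptm5 fell in MPI-2 as well (-1.39 ± 0.13). Cln3 (1.45 ± 0.15) and the sialomucin Cd164 (0.93 ± 0.12) rose in BMM, and the chloride transporter Clcn7 rose in MPI-2 (1.09 ± 0.16). Gpnmb, a glycoprotein of lipid-laden macrophages, was lower in MPI-2 mock (-3.68 ± 0.12), and Cd9 (2.60 ± 0.24) and Cd164 (2.35 ± 0.12) were higher.

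Among 18 further hydrolases 12 fell and none rose in BMM (median -0.61), and 3 fell and 2 rose in MPI-2 (median -0.28). The MPI-2 shares, 16.7% lower and 11.1% higher, were near those of genes above background. Hgsnat, an acetyltransferase of heparan sulfate breakdown, fell in BMM (-1.70 ± 0.18) and rose in MPI-2 (1.10 ± 0.18), with a difference of 2.80 ± 0.26. The nuclease Dnase2a fell in BMM (-1.43 ± 0.16), the progranulin gene Grn fell in MPI-2 (-1.40 ± 0.17), and Acp5 rose there (1.63 ± 0.19). Delivery genes fell in 9 of 23 cases and rose in 2 in BMM (median -0.37), and fell in 5 with none higher in MPI-2 (median -0.08). Igf2r, the large mannose 6-phosphate receptor, rose in BMM (1.28 ± 0.15) and was far lower in MPI-2 (-2.57 ± 0.15 in mock and -4.06 ± 0.15 in LPS), and the sorting receptor Sort1 was higher in MPI-2 (3.72 ± 0.17 and 2.86 ± 0.17) and fell there with LPS (-1.19 ± 0.17). Autophagy genes fell in 12 of 22 cases and rose in 3 in BMM (median -0.50), and fell in 3 and rose in 2 in MPI-2 (median -0.13). Their MPI-2 shares, 13.6% lower and 9.09% higher, were near those of genes above background. The receptor Nbr1 (-1.74 ± 0.11) and the ATG8 relative Gabarapl1 (-1.27 ± 0.15) fell in BMM, with differences of 1.48 ± 0.16 and 1.44 ± 0.21. Tax1bp1, another autophagy receptor, rose in both (0.69 ± 0.18 and 1.01 ± 0.18). The calls named for these lists had adjusted p from 3.53e-12 to 0.0272.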

How the data were processed

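The table deposited by the authors holds 1 log2 value per probe set for each of 12 arrays. RMA and the package affy, named in the submitters' processing notes, correct background, bring arrays to a common distribution and summarise probes. Their versions and the number of runs were not stated in the sources at hand, and base 2 was inferred from the range of 1.18 to 12.82. Gene values as deposited still differed in spread between arrays, with interquartile ranges from 2.34 (BMM LPS 3) to 3.47 (MPI-2 mock 2). Since RMA is built to remove an overall change in the amount of new RNA, differences here are relative ones within an array. Of 34760 probe sets, 21640 name 1 gene, 1321 name several and 11799 none. A gene with several probe sets was represented by the brightest on average, which left 19937 genes. Of the 50 members Arsb and Mitf had 2 probe sets. Background was set at the 95th percentile of 1027 olfactory receptor genes.

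With limma 3.58.1 (R 4.3.3), 4 group means were estimated from the 12 arrays together (8 residual degrees of freedom, 6.99 added by empirical Bayes), for 5 comparisons with Benjamini-Hochberg adjustment over all genes. The fit was tested on simulated data. Precision is limited by the number of arrays. All 12 values are printed for members that passed with a change of at least 1 and no overlap in some comparison, and for Tfeb, Tfe3 and Mitf. Of the further lists, the 2 largest increases and decreases of a list and comparison could be named, and Fnip1 in BMM and the difference of Flcn were added after their values were seen. The members and lists were chosen with earlier results of these data known. Alternatives were other scalings, filters, weights, blocks and left-out arrays. The planned comparison of cathepsin proteins was not run.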

Additional observations from a re-analysis of the deposited data

Results flagged for a closer look

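For 27 lysosomal genes the response to LPS differed between the cell types by limma's test of the difference itself, MPI-2 minus BMM on the log2 scale. Of these 20 were higher and 7 lower, where 7.08% and 6.27% of all genes were. The widest positive differences were those of Lipa (2.32), Ctsd (2.10), Lgmn (2.05), Gusb (2.03), Galc (1.84), Cd68 (1.70) and Gla (1.56). Further positive differences were found for Man2b1 (1.49), Hexa (1.37), Npc1 (1.31), Ctsk (1.28, a limit since BMM LPS lay under background), Ctsb (1.26), Ctsl (1.25) and Tpp1 (1.24), and smaller ones for Sgsh (1.17), Atp6v0d2 (0.97), Gaa (0.91), Atp6v1h (0.70), Lamp2 (0.66) and Glb1 (0.62). Negative differences were those of Npc2 (-1.17), Scarb2 (-0.94), Ppt1 (-0.92), Arsb (-0.89), Ids (-0.79), Ctsc (-0.65) and Gm2a (-0.64). Among the cysteine and asparaginyl proteases 4 of 8 differed upward and 1 downward, and among the lipid enzymes and activators 5 of 13 upward and 3 downward. None of the 3 transcription factor genes was among them.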

How the results depend on the processing

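The decrease of lysosomal genes with LPS in BMM kept its direction. The count of 39 lower genes stayed between 36 and 39 as single arrays were left out, with 2 to 3 higher, and was 37 after quantile scaling and 36 after cyclic loess. It was lowest, at 34, with the BMM arrays alone, where Galns, Neu1, Lamp2, Mcoln1 and Atp6v1h did not pass. In MPI-2 the count of lower genes ran from 19 to 25 and that of higher genes from 3 to 4 without single arrays. The median change in MPI-2, -0.47 as deposited, was -0.37 after quantile scaling and -0.39 after cyclic loess. The 4 higher genes became 7 with array weights, with the arrays of MPI-2 alone and without BMM mock 1 and BMM LPS 3 together, an alternative chosen after seeing the data. With array weights, and likewise with the MPI-2 arrays alone, 9 members beyond those of the main fit passed in MPI-2, lower and higher ones together. Lower differences between the responses (7) ran from 2 to 8 without single arrays. For the further lists, lower calls in MPI-2 (29) became 47 with array weights and 48 with MPI-2 arrays alone, and lower differences (7) ran from 4 to 10 without single arrays and became 13 without the 2 arrays together. After cyclic loess, higher calls of these lists in mock (46) became 28 and lower calls in LPS (18) became 32, or 29 after quantile scaling, and the 12 members lower in LPS became 19. Mock differences of Scarb2 (-0.04), Acp2 (-0.32) and Mitf (-0.43) turned negative after cyclic loess. The causes were not tested.

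Replicate numbers did not pair the samples, since deviations of same-numbered arrays correlated at -0.15 to 0.24. With the numbers of the titles as a replicate block, 39 members fell in BMM, 23 in MPI-2 and 6 differed downward. With those of the descriptions, which number MPI-2 mock otherwise, 39 fell in BMM, 20 in MPI-2, 2 rose in MPI-2 and 4 differed downward. That block ended the MPI-2 increases of Ctsb (0.42) and Ctsd (0.48), the MPI-2 decreases of Hexa, Lamp1 and Cd63, the differences of Ctsc, Glb1, Ppt1, Lamp2 and Gm2a and the mock gaps of Gusb (-0.38), Psap and Ids, and the block by titles ended those of Hexa and Lamp1 in MPI-2 and of Gm2a. With limma's trend, Hexa, Npc2, Lamp1 and Cd63 in MPI-2, the differences of Glb1, Lamp2 and Gm2a and the mock gap of Scarb2 did not pass. Small decreases such as those of Atp6v1h and Galns in BMM passed with all 12 arrays and lost their calls under several alternatives, and signal near background limits Arsa, Ctsk in BMM LPS and the low Galc, Gaa and Sgsh values.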

Other observations

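Besides the 6 promoters printed above, CACGTG stood in the windows of Glb1, Naglu, Gaa, Sgsh, Ctsl and Arsa, each with 1 match. Of these Glb1 (-0.68 ± 0.13), Naglu (-0.91 ± 0.22), Gaa (-1.03 ± 0.16), Sgsh (-1.34 ± 0.17) and Ctsl (-0.94 ± 0.12) fell with LPS in BMM, and Arsa (-0.01 ± 0.14) did not pass. None of the 6 passed in MPI-2. No promoter window was at hand for Atp6v0d2, Npc1, Galns, Ctsh, Atp6v1h, Asah1 and Ctsb.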
